A study of Mesocricetus auratus with 11 samples.

Results

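DNA methylation in MT2 cells exposed to 5aCdR was set against that of primary fetal cells, with 3 and 4 reduced representation bisulfite libraries, 7 of the 11 in the series. The 7 libraries were chosen by their labels alone. All cells were of the Syrian hamster (Mesocricetus auratus), from female fetuses or a line typed as female. MT2 is a line that grew from 1 colony transformed by benzo[a]pyrene (5 µg/mL) and passed senescence, and it was at about passage 28. Its treated plates received 5-aza-2'-deoxycytidine (5aCdR, 5 µM) for 48 h. The protocol in the labels names 4 such plates, of which 3 have a library here and the other was not analysed here. The 4 primary samples each came from another fetus of gestation day 13.5, had fewer than 3 days and 1 passage in culture, and were thawed and used without treatment. Head, viscera and limbs had been removed, so the primary cells were a mixture of skin, muscle, bone and cartilage lineages. The 4 MT2 plates given vehicle (0.05% DMSO, 48 h) served to place the treated cells. All MT2 plates were seeded from 1 thawed stock, so n counts plates of 1 line and p-values do not measure the spread between independently derived lines. Treated and primary cells differed in origin, passage, culture medium and drug together, and these cannot be told apart in that comparison.

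In mammals, methyl groups sit mainly on the cytosine of CpG dinucleotides, where a maintenance methyltransferase copies them to the new strand at each round of DNA replication. 5aCdR is built into DNA in place of deoxycytidine and traps the methyltransferases, so that methylation is diluted as cells divide. Most isolated CpGs of the genome are methylated, while CpGs packed into islands, often at gene starts, are mostly free of it. Immortal and transformed lines are known for loss of methylation at the former and gain at some of the latter. No gene coordinates on the scaffolds of these files were used here, so regions are named by scaffold and 1-based position, in a genome build not given in the sources used here. For the same reason neither cell label could be checked against marker genes.

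A level is the percent of reads at a CpG that carry a methylated cytosine. Reads over CpGs numbered 36110136 to 46148127 in the 5aCdR libraries and 19331056 to 37417483 in the primary ones. Of 2010882 CpGs covered in any library, 170097 (8.46%) outside the mitochondrial sequence had at least 10 reads in all 7 libraries. Their median depth was 45 to 56 reads in 5aCdR libraries and 28 to 46 in primary ones. Where vehicle cells are included, values refer to 81289 CpGs (4.04%) with that depth in all 11 libraries. No source used here says whether PCR copies were removed, so no interval from read counts is printed. At equal depth of 10 reads, a 5aCdR and a vehicle library differed by 17.2 percentage points per CpG on average, less than either differed from primary libraries (21.7 and 21.2). Pairs of 5aCdR libraries differed by 16.0 points and pairs of vehicle libraries by 16.2, so most of the 17.2 was also seen within a group.

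Treated MT2 cells carried less methylation than primary cells. The mean over the 170097 CpGs was 30.9%, 30.5% and 30.6% in the 5aCdR libraries and 37.0%, 36.7%, 36.95% and 37.1% in the primary libraries. Every treated library lay below every primary library, and the gap was many times the spread within either group. Their averages, 30.7% ± 0.214 (SD, n = 3) and 36.9% ± 0.182 (SD, n = 4), gave a difference of -6.29 percentage points (exact two-sided permutation test, p = 0.0286, the lowest value open to 35 splits). Pooling the reads of all CpGs, so that deeply read ones weigh more, gave -9.88 points. On the CpGs shared with vehicle libraries the levels were 33.2% after 5aCdR, 38.1% with vehicle and 41.1% in primary cells. Of the -7.93 points between treated and primary cells there, -3.00 lay between vehicle and primary cells and -4.93 between treated and vehicle cells. Mitochondrial CpGs stood at 2.26% to 2.59% in the treated libraries and at 3.73% to 4.97% in the primary ones. These ranges did not overlap (p = 0.0286 by exact permutation). Vehicle libraries were at 2.48% to 3.56%. These values pool the mitochondrial CpGs that each library lists, 23 to 29 in treated and 10 to 24 in primary libraries. At the densest nuclear CpGs, described below, primary libraries were at 1.69% to 1.84%, so mitochondrial levels do not gauge false calls at nuclear CpGs. The part of reads falsely called methylated in the nuclear difference was not tested.

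The sign of the difference turned with local CpG density, counted as CpGs covered in any library within 250 bp on each side, the CpG itself included. At the 43884 sparsest CpGs, with 1 to 4 CpGs nearby, the 5aCdR libraries were at 47.0%, 46.4% and 46.4% and the primary libraries at 60.9%, 60.5%, 60.9% and 60.9%. Treated cells were lower there by a wide margin, with a difference of -14.2 points. At the 43158 CpGs with 5 to 9 nearby treated cells averaged 46.7% ± 0.294 (SD, n = 3) and primary cells 56.2% ± 0.322 (SD, n = 4), which is -9.45 points. At the 29486 CpGs with 10 to 19 nearby the libraries were at 30.5%, 29.96% and 30.3% after 5aCdR and at 33.3% to 34.0% in primary cells, a difference of -3.39 points.

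Dense CpGs went the other way. The 19244 CpGs with 20 to 29 nearby were at 8.35%, 8.12% and 8.53% after 5aCdR and at 7.31%, 7.16%, 7.04% and 7.16% in primary cells. The 34325 CpGs with 30 or more nearby were at 2.95%, 2.91% and 2.96% after 5aCdR and at 1.79%, 1.79%, 1.69% and 1.84% in primary cells, 1.65 times the primary level. The groups did not overlap in any of the 5 classes (adjusted p = 0.0286 for every class, Benjamini-Hochberg over exact permutation tests). Both dense classes were higher in treated cells, by 1.17 and 1.16 points. The part of reads falsely called methylated in these low levels was not tested.

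**Figure D1:**
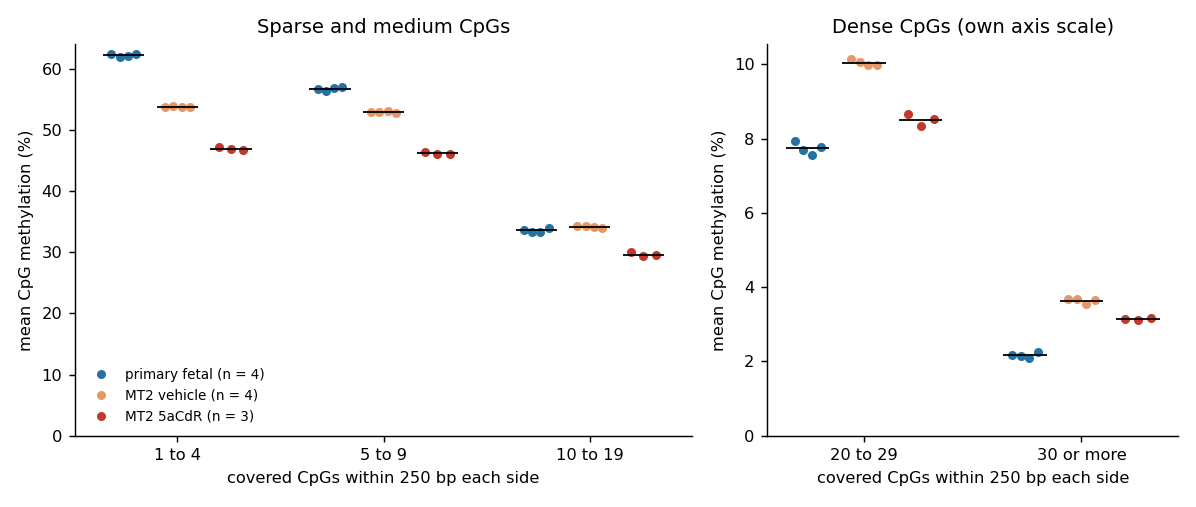
Mean methylation of each library (points; bars are group means) by the number of covered CpGs within 250 bp on each side, over 81289 CpGs common to 11 libraries; the right panel has its own axis scale. At 1 to 4 CpGs nearby the order falls from primary cells (62.2%) through vehicle (53.8%) to 5aCdR cells (46.9%), while at 30 or more the treated cells (3.14%) lie between vehicle (3.64%) and primary cells (2.16%).

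Placed beside vehicle cells, treated cells lay beyond them at sparse CpGs and between them and primary cells at dense CpGs. At 1 to 4 CpGs nearby the level was 62.2% ± 0.207 (SD, n = 4) in primary cells, 53.8% ± 0.0482 (SD, n = 4) with vehicle and 46.9% ± 0.280 (SD, n = 3) after 5aCdR. At 10 to 19 CpGs nearby vehicle cells stood 0.580 points above primary cells and treated cells at -3.97 points relative to them. At 20 to 29, vehicle cells stood 2.30 points above primary cells and treated cells 0.761 points above. At 30 or more, these offsets were 1.48 and 0.975 points. The offsets of vehicle and treated cells share the same 4 primary libraries.

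Density and starting level go together, so primary replicates 1 and 2 were used to class the CpGs by level, and the treated libraries were then set against primary replicates 3 and 4. CpGs below 20% (84716) were at 7.45%, 7.28% and 7.38% after 5aCdR and at 5.68% and 5.81% in primary cells. CpGs from 20 to 80% (46754) were at 42.8%, 42.3% and 42.4% after 5aCdR and at 55.2% and 55.4% in primary cells. CpGs above 80% (38627) were at 67.8%, 67.0% and 67.3% after 5aCdR and at 83.5% and 83.7% in primary cells. Treated cells were thus higher at low starting levels, by 1.62 points, and lower at the others, by differences of -12.8 and -16.2 points, and no libraries overlapped. With 3 against 2 libraries the exact permutation test gave p = 0.1 in each class, the smallest it can give.

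In finer steps the largest gap lay at high but not full starting levels. CpGs in the bin of 70 to 80% were at 52.5% after 5aCdR, 60.7% with vehicle and 71.7% in primary replicates 3 and 4, a difference of -19.2 points between treated and primary cells. In the bin of 90 to 100% the levels were 70.8%, 79.5% and 86.5%, and the difference was -15.7 points. In the bin of 10 to 20% treated cells were at 22.7% and primary cells at 24.0%, with vehicle cells above both at 27.2%. Only in the lowest bin of the 10 did treated cells exceed primary cells, at 5.76% against 4.07%.

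**Figure D2:**
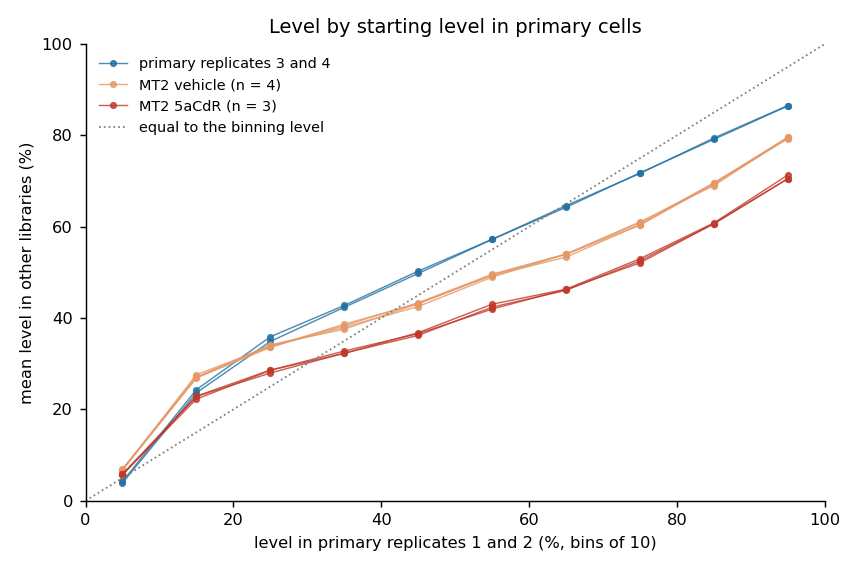
Mean level of each library (1 line each, %) against the level in primary replicates 1 and 2 (%, bins of 10), over 81289 CpGs; the dotted line marks equal values, and primary replicates 3 and 4 depart from it because the bins were made with the other primary libraries. The 5aCdR lines run below the vehicle lines in every bin and reach 70.8% where primary cells reach 86.5%.

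Within 1 starting class, the deficit of treated cells relative to primary cells was largest at sparse CpGs. Among CpGs from 20 to 80% in primary cells the difference between treated and primary cells was -17.8 points at 1 to 4 CpGs nearby, -13.6 at 5 to 9 and -10.1 at 10 to 19. It was -2.77 at 20 to 29 and -4.51 at 30 or more, the latter from 322 CpGs. From sparse to dense, vehicle minus primary was -11.3, -6.41, -2.71, 3.56 and 1.84 points in this class. Treated minus vehicle was -6.50, -7.22, -7.35, -6.33 and -6.34 points, without such a gradient. Among CpGs above 80% the range was narrower, from -18.2 points at 1 to 4 CpGs nearby to -13.3 at 20 to 29. Treated minus vehicle there was -8.54 points at 1 to 4, -8.57 at 5 to 9 and -8.93 at 10 to 19. It was -12.5 at 20 to 29, from only 320 CpGs. Among CpGs below 20% treated cells were lower than primary cells only in the sparsest class, by -1.29 points, and higher by 1.17 to 2.61 points in the other 4. Treated minus vehicle went from -3.72 points in the sparsest class to -0.303 in the densest. These are differences of group means over classes of at least 100 CpGs and were not tested.

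Treated cells also held fewer CpGs of high level. Shares move with depth, so each CpG was thinned to 10 reads in each library. The share above 80% was 15.5% to 16.2% in the 5aCdR libraries and 23.6% to 26.8% in the primary libraries. The share from 20 to 80% was 29.5% to 31.8% and 20.2% to 26.6%. Neither pair of ranges overlapped, but neither passed after adjustment over the 3 classes (exact permutation test, p = 0.0286 and 0.0571, adjusted p = 0.0857 for both). Without thinning, the share above 80% did pass (adjusted p = 0.0429, exact permutation test). The share below 20% was 53.5% ± 0.773 (SD, n = 3) against 51.8% ± 1.51 (SD, n = 4), with p = 0.171 in the exact permutation test, and passed without thinning (adjusted p = 0.0429). On the CpGs shared by all 11 libraries and at 10 reads, the share above 80% was 16.1% after 5aCdR, 25.6% with vehicle and 27.1% in primary cells.

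At the scale of 1 kb, regions differed in both directions, and of those called 71.5% were lower in treated cells. A quasi-binomial test of summed methylated and unmethylated reads called 3725 of 20571 tiles with at least 3 CpGs (18.1%) at an adjusted p below 0.05. Of all tiles tested, 2665 (13%) were called lower and 1060 (5.15%) called higher after 5aCdR than in primary cells. By at least 25 points, 1913 (9.3%) were lower and 450 (2.19%) higher. With no overlap between libraries besides, 1782 (8.66%) were lower and 408 (1.98%) higher. The balance moved with the size of the tiles' CpG sets: with a minimum of 5 CpGs, 634 of 8399 tiles passed as lower and 530 as higher. Leaving out primary replicate 4 lowered the count of called tiles to 2476.

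The directions differed in kind of tile. For tiles called lower the median was 72.0% in primary cells, 34.2% after 5aCdR and 6 CpGs nearby. For tiles called higher it was 2.80%, 27.5% and 13.7 CpGs nearby, against 11 nearby for all tiles tested. Of tiles whose CpGs averaged 1 to 4 neighbours, 24.9% were called lower and 2.68% higher. At 30 or more neighbours 0.294% were called lower and 5.40% higher.

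**Figure D3:**
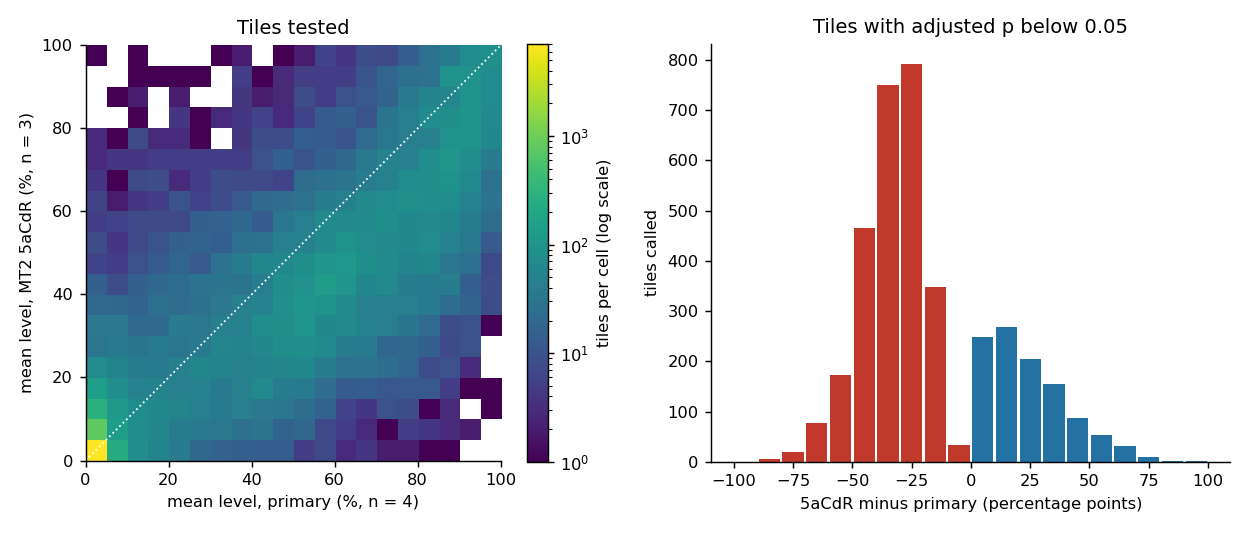
Left, mean level of 20571 tiles in primary cells (horizontal, %) and in 5aCdR cells (vertical, %), with the number of tiles per cell of the grid on a log color scale and a dotted line at equal levels; right, tiles called at an adjusted p below 0.05 by the difference (percentage points, steps of 10). The bars left of 0 hold 2665 tiles lower after 5aCdR and those right of 0 hold 1060 higher.

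Vehicle cells, which took no part in these calls, resembled treated cells more than primary cells at both kinds of tile. Among the 2224 lower tiles with reads in all 4 vehicle libraries, the median was 43.0% with vehicle, 35.1% after 5aCdR and 72.1% in primary cells. Among 842 such higher tiles it was 27.5% with vehicle, 25.4% after 5aCdR and 2.67% in primary cells.

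The 10 tiles with the largest fall relative to primary cells went from 84.2 to 100% in primary cells to 2.17 to 14.3% after 5aCdR, each from 3 or 4 CpGs. They lay on 9 scaffolds. The tile at 1993001 to 1994000 of KB708228.1 was at 6.49%, 0% and 7.67% in the 5aCdR libraries and at 86.3%, 81.2%, 89.0% and 92.7% in the primary libraries. All 4 vehicle libraries, at 0 to 5.20%, were as low as the treated ones (quasi-binomial test, treated against primary, adjusted p = 2.6e-05). The tile at 5001 to 6000 of the small contig APMT01213449.1 was at 0%, 8.62% and 8.25% after 5aCdR and at 98.1%, 86.1%, 85.0% and 97.9% in primary cells (adjusted p = 0.000218, same test). Its vehicle libraries disagreed, at 2.46%, 94.7%, 23.0% and 28.8%. The tile at 10915001 to 10916000 of KB708174.1 had no unmethylated read in any of the 4 primary libraries. It was at 9.71%, 33.3% and 0% after 5aCdR (adjusted p = 0.00101, quasi-binomial test). Vehicle libraries that list it were at 57.4%, 0% and 41.9%.

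For the tile at 13046001 to 13047000 of KB708149.1, treated libraries were at 13.0%, 0% and 10.1% and primary libraries at 66.7%, 84.8%, 100% and 97.5%. Vehicle libraries there lay between the groups but near the treated ones, at 15.7% to 27.2%. The tile at 3135001 to 3136000 of KB708257.1 was at 20.2%, 0% and 13.3% after 5aCdR, at 77.6% to 100% in primary cells and at 13.5% to 100% with vehicle. Other members of the 10 were at 2898001 of KB708174.1, 1304001 of KB708189.1, 55001 of KB708222.1, 362001 of KB708411.1 and 3185001 of KB708294.1, with differences of -85.0 to -77.7 points. Vehicle libraries that list them were at 0% at 2898001 and 1304001 and at 2.44% to 18% at 3185001. At 55001 they were at 21.0% to 66.3%, and at 362001 they were at 7.2% to 67.7%. The vehicle values of named tiles rest on those of the tested CpGs that a vehicle library lists, and some vehicle libraries list none.

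The 10 tiles with the largest rise relative to primary cells went from 0.0442 to 19.4% in primary cells to 72.6 to 100% after 5aCdR and lay on 10 scaffolds. The tile at 2229001 to 2230000 of KB708321.1, the deepest with a median of 1068 reads per library, was at 84.3%, 90.3% and 89.9% after 5aCdR and at 19.6%, 16.0%, 11.3% and 11.1% in primary cells. Vehicle libraries were at 90.2% to 100% (quasi-binomial test of treated against primary cells, adjusted p = 1.4e-06). The tile at 3090001 to 3091000 of KB708226.1 was at 98.9%, 96.6% and 91.1% after 5aCdR and at 6.52%, 8.10%, 4.89% and 29% in primary cells (adjusted p = 0.00014, same test). Its vehicle libraries were at 82.7% to 94.4%, so both tiles were high in MT2 cells with or without 5aCdR.

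The tile at 2177001 to 2178000 of KB708273.1 had the widest gap of all: it was read as fully methylated in the 3 treated libraries and at 0%, 14.6%, 0% and 2.33% in primary ones. Of its vehicle libraries 3 were at 100% and 1 at 0%. The tile at 19093001 to 19094000 of KB708147.1 was the one with most CpGs, 8, in surroundings of 31.9 CpGs on average. It was at 60.9%, 71.8% and 84.9% after 5aCdR, at 52.4% to 71.7% with vehicle and at 0% in 3 of 4 primary libraries, with 0.177% in the other (adjusted p = 4.1e-05, quasi-binomial test). The megabase around it drew 1.34 times the share of reads in treated libraries as in primary ones, and the part of that in its level was not tested. Around the 18 other named tiles with a value this ratio was between 0.866 and 1.09, and over 1781 megabases its 5th and 95th percentiles were 0.844 and 1.19.

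Dense surroundings also held the tile at 11775001 to 11776000 of KB708183.1, at 100%, 32.1% and 100% after 5aCdR and at 0% in 3 of 4 primary libraries. Its vehicle libraries were at 60% to 100%. On KB708127.1 the tile at 54534001 to 54535000 was at 90.8%, 62.0% and 77.8% after 5aCdR, with primary libraries at 0%, 0%, 9.09% and 0% and vehicle libraries at 81.4% to 100%. The others higher than in primary cells were at 1028001 of KB708202.1, 1439001 of KB708355.1, 476001 of KB708389.1 and 356001 of KB708200.1, by 75.3 to 83.1 points. Vehicle libraries that list these tiles were at 80.4% or more. All 20 named tiles remained called under the limma test on mean logits and without each of the 7 libraries in turn. They were picked as the largest differences in these same libraries, so this is not an independent check.

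Over windows of 100 kb most levels were lower in treated cells, and the share of units that were lower was smaller for smaller units. Of 5746 windows with at least 10 CpGs, 69.7% had a lower level after 5aCdR than in primary cells, and the median difference was -4.26 points. Of 1-kb tiles 52.8% were lower, with a median of -0.281 points, and of single CpGs 44.5% were lower, with a median of 0. That median shows that some CpGs had equal levels in both groups. Units with equal levels were not counted apart, so the remaining shares do not give those that were higher. Whether the loss itself depends on the size of the unit was not tested. Windows that passed the quasi-binomial test numbered 1438 (25%), with 1279 (22.3% of those tested) lower and 159 (2.77%) higher. By at least 25 points 313 (5.45%) were lower and 15 (0.261%) higher, and with no overlap between libraries besides 310 (5.4%) and 15 (0.261%). Each named window held between 10 and 15 tested CpGs, so its level is that of few sites. The window at 6800001 to 6900000 of KB708140.1, with 12 CpGs, was at 20.6%, 9.68% and 29.9% after 5aCdR. It was at 88.7%, 86.4%, 66.7% and 81.6% in primary cells (quasi-binomial test, adjusted p = 3.8e-06) and at 17.7% to 38.3% with vehicle. The window at 2100001 to 2200000 of KB708244.1 was at 27.4%, 31.5% and 40.6% after 5aCdR, in the range of the vehicle libraries (26.6% to 38.8%) or just above it, while primary libraries were at 81.2% to 92.5%. The third, which starts at base 1 of contig APMT01207187.1, was at 22.2%, 18.0% and 14.4% after 5aCdR, with primary libraries at 72.0% to 89.7% and vehicle libraries spread from 3.01% to 35.9%.

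In the 3 named windows that were higher than in primary cells, the treated mean lay below the vehicle mean. The window at 200001 to 300000 of KB708307.1 was at 72.9%, 65.9% and 62.4% after 5aCdR, at 74.4% to 91.6% with vehicle and at 22.4% to 35.4% in primary cells. On KB708141.1 the window at 4900001 to 5000000 was at 65.0%, 73.7% and 69.7% after 5aCdR, 72.5% to 85.0% with vehicle and 30.9% to 39.7% in primary cells, so that treated and vehicle libraries overlapped. On KB708272.1 the window at 200001 to 300000 treated libraries (60.0% to 64.0%) lay below vehicle libraries (67.4% to 86.2%) and above primary ones (22.5% to 35.7%). All 3 were named by their difference from primary cells, so their distance from vehicle cells is a description.

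Some called windows stood side by side, and whether they did so more often than their share of all windows gives was not tested. The longest run of lower windows, chosen after its values were seen, spanned 9 windows from 2800001 to 3700000 of KB708204.1 with 232 CpGs. It was at 51.3%, 46.3% and 47.0% after 5aCdR, 57.7% to 61.8% with vehicle and 63.2% to 68.8% in primary cells. The 1 run of higher windows, at 1500001 to 1700000 of KB708147.1, had treated libraries at 12.6%, 11.6% and 11.5%, vehicle libraries at 13.0% to 13.8% and primary libraries at 6.43% to 7.196%.

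At single CpGs, 9064 of 170097 (5.33%) passed, 7552 lower (4.44%) and 1512 higher (0.889%) in treated than in primary cells. By at least 25 points the shares were 4.15% and 0.853%, and with no overlap between libraries besides 3.84% and 0.763%. Of CpGs with 1 to 4 neighbours 9.6% were called lower and 1.01% higher, and of those with 30 or more 0.0437% and 0.221%. The count fell when any 1 library was left out. It was 3332, 3912 and 3560 without 5aCdR replicate 1, 2 and 3. Without primary replicate 1, 2, 3 and 4 it was 6210, 6478, 5508 and 4568.

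The last question was whether treated cells lay nearer to or further from primary cells than vehicle cells did. Over all CpGs the answer depended on the measure. With each CpG thinned to 10 reads, the mean absolute difference from the 4 primary libraries was 21.4, 21.8 and 21.8 points for the 5aCdR libraries and 20.7, 21.5, 21.6 and 20.8 for the vehicle libraries. The ranges overlapped, and the difference of 0.501 points did not pass (exact permutation test, p = 0.2). With at least 20 reads, thinned to 20, the difference was 1.02 points, and over 1-kb tiles it was 0.757 (exact permutation test, p = 0.0571 for both). The root mean square difference turned the sign, to -0.783 points (exact permutation test, p = 0.371). By that measure pairs of vehicle libraries differed by 29.3 points and pairs of 5aCdR libraries by 26.6. The part of this scatter within groups in the turn of sign was not tested. A cross product of differences from separate libraries, which independent counting noise does not inflate, put treated cells further away, at 20.3 against 19.7 points over CpGs and 16.1 against 15.3 over tiles (exact permutation test, p = 0.0286 for both). Primary libraries differed among themselves by 16.2 to 17.6 points at 10 reads.

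By CpG density the distances moved in opposite directions. At 1 to 4 CpGs nearby the treated libraries were at 31.0, 31.6 and 31.5 points from primary cells and the vehicle libraries at 29.4, 30.6, 30.8 and 29.7, a difference of 1.25. At 5 to 9 the difference was 0.889 points and at 10 to 19 it was -0.112, with overlapping libraries in both. At 20 to 29 CpGs nearby treated libraries, at 6.81, 6.68 and 6.74, were nearer than each vehicle library, at 6.99, 7.35, 7.36 and 7.08. At 30 or more they were at 3.14, 3.21 and 3.26 against 3.59, 3.60, 3.48 and 3.44, a difference of -0.325. None of the 5 passed after adjustment (exact permutation test, adjusted p = 0.0952, 0.214, 0.714, 0.0952 and 0.0952 in order of density). At 10 to 19 the sign turned to 0.0691 when 1 library was left out. By the cross product the differences from sparse to dense were 1.33, 0.444, -0.0775, -1.03 and -1.10 points, larger in size at dense CpGs than the mean absolute differences. None of these passed either (exact permutation test, lowest adjusted p = 0.0714).

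**Figure D4:**
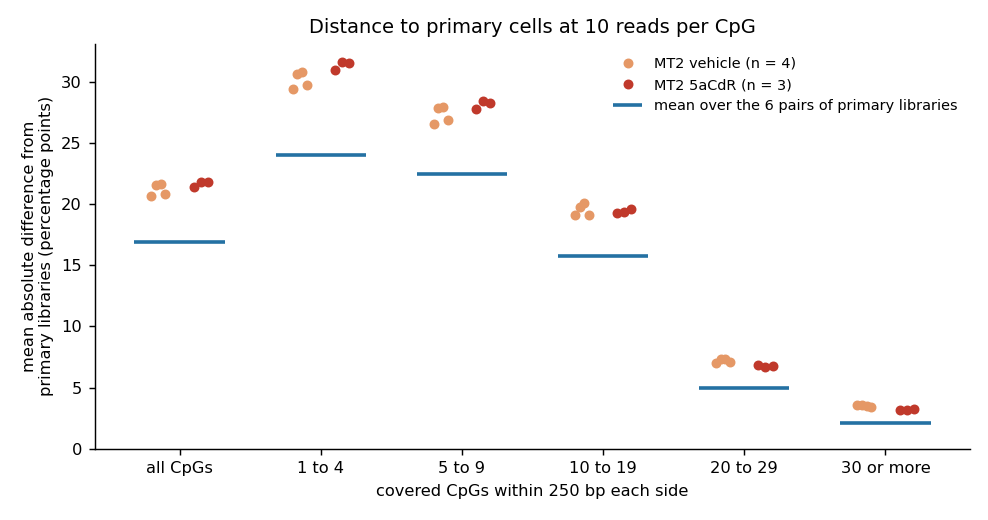
Mean absolute difference of each MT2 library (points) from the 4 primary libraries, in percentage points at 10 reads per CpG, for all CpGs and by the number of covered CpGs nearby; blue lines give the mean over pairs of primary libraries. Treated libraries sit above vehicle libraries at 1 to 4 CpGs nearby, where the vehicle range reaches 30.8, and below them at 30 or more, where treated libraries reach 3.26.

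Whether treated cells came nearer also depended on which way vehicle cells had departed. Tiles were sorted with vehicle and primary replicates 1 and 2 and read in vehicle and primary replicates 3 and 4, which took no part in the sorting. In 453 of 8928 tiles (5.07%) vehicle cells exceeded primary cells by at least 25 points. These were at 54.0%, 53.9% and 53.0% after 5aCdR, 62.9% and 63.5% with vehicle and 37.3% and 37.4% in primary cells. Treated cells thus lay between the others, with 63.1% of the gap left, and 70.2% of these tiles were nearer to primary cells after 5aCdR than with vehicle.

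In 879 tiles (9.85%) vehicle cells were below primary cells by at least 25 points. They were at 33.1%, 33.1% and 32.4% after 5aCdR, 36.5% and 35.8% with vehicle and 65.4% and 65.2% in primary cells, so that treated cells lay further off and 39.7% of tiles were nearer. In the 5562 tiles (62.3%) where both were within 10 points, treated cells were at 20.2% ± 0.192 (SD, n = 3), vehicle at 23.2% and primary cells at 23.1%, and 38.9% of tiles were nearer. Treated and vehicle libraries did not overlap in any of the 3 sets, with differences of -9.54, -3.30 and -2.97 points and relative changes of -15.1%, -9.13% and -12.8%. The exact permutation test gave p = 0.1 in each, the smallest that 3 against 2 libraries allow.

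**Figure D5:**
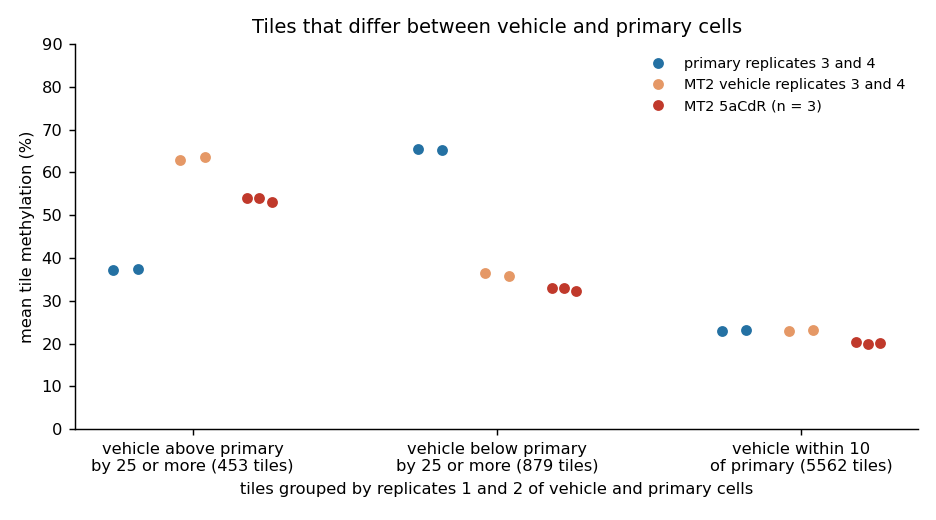
Mean tile methylation (%) in primary replicates 3 and 4, vehicle replicates 3 and 4 and the 3 treated libraries, for tiles grouped by the difference between vehicle and primary cells in replicates 1 and 2. Treated libraries (53.0% to 54.0%) lie between vehicle and primary cells where vehicle was higher and below both (32.4% to 33.1%) where vehicle was lower.

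Tiles that passed the test of treated against vehicle cells fell after 5aCdR with 1 exception, so their place relative to primary cells turned on where vehicle cells had stood. The test, in which primary libraries took no part, called 148 of 8928 tiles (1.66%), 147 of them lower after 5aCdR (1.65%). Of the 148, 44 were nearer to the primary level after 5aCdR and 104 further, and among all tiles tested 43.4% were nearer. The treated and vehicle values that made the call also gave the place, so these counts are a description. The 148 had a median of 88.1% with vehicle, 58.7% after 5aCdR and 80.1% in primary cells. In 47 of the 147 vehicle cells already stood below primary cells, so that a fall could only lead further away. In the 100 where vehicle cells stood above, 43 were nearer after 5aCdR and 57 further, and 83 crossed to below the primary level. The 43.4% of all tiles is not a like share for these, since vehicle cells stood above in 4139 of the 8928. Among all 1180 tiles with a vehicle level of at least 80%, 847 of them with vehicle above primary, 45.7% were nearer. Leaving out vehicle replicate 1, 3 or 4 lowered the 148 to 65, 70 or 46, and leaving out 5aCdR replicate 1 or 3 to 89 or 85. The 44 nearer tiles became 14, 27 and 21 without 5aCdR replicate 1, 2 and 3 and 17, 22, 19 and 10 without vehicle replicate 1, 2, 3 and 4. Without CpGs of very high coverage 70 tiles were called, 22 nearer and 48 further.

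The tile at 901001 to 902000 of KB708300.1 came back furthest toward the primary level. It was at 5.38%, 7.56% and 5.35% after 5aCdR, at 23.9%, 38.1%, 72.1% and 28.9% with vehicle and at 0% to 0.673% in primary cells (treated against vehicle, quasi-binomial test, adjusted p = 0.0240). On KB708127.1 the tile at 54027001 to 54028000 was at 68.7%, 65.9% and 53.4% after 5aCdR, below every vehicle library (88.9% to 100%) and above every primary library (26.6% to 46.6%). The tile at 1748001 to 1749000 of KB708346.1 reached the primary range: it was at 14.2% to 24.9% after 5aCdR, 47.1% to 60.3% with vehicle and 7.94% to 33.7% in primary cells. The other tiles of this kind were at 293001 of KB708308.1 and 11561001 of KB708169.1, which were 31.5 and 25.4 points nearer.

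Of those that went further, the tile at 7024001 to 7025000 of KB708216.1 was at 26.3%, 41.0% and 53.5% after 5aCdR. Its vehicle libraries, at 79.3% to 100%, and primary libraries, at 76.1% to 100%, overlapped. The tile at 9511001 to 9512000 of KB708161.1 was at 42.7%, 45.3% and 44.6% after 5aCdR, with primary cells at 90.9% ± 7.81 (SD, n = 4). Tiles at 5453001 of KB708163.1, 1322001 of KB708307.1 and 6232001 of KB708169.1 went 42.7, 42.2 and 40.4 points further from the primary level. Of these 10 tiles, between 1 and 5 were still called for treated against vehicle cells when any 1 MT2 library was left out.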

How the data were processed

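Per the labels' protocols, a commercial reduced representation kit was used on genomic DNA. The submitters' processing notes name the aligner Bismark 0.22.1 with Bowtie2, the trimmer Trim Galore 0.5.0, the demultiplexer bcl2fastq 2.20.0.42, and the package methylKit 1.10.0 in R 3.6.1; settings, genome build and removal of duplicates are not given in the sources used here. Per the file headers, the deposited coverage is a count of reads on 1 strand of a CpG and the deposited C and T frequencies are each a percent of that count; positions under 10 reads are not listed.

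Methylated reads were coverage times the percent of C, rounded, and both strands of a CpG were summed. Levels per library were means over CpGs, compared with exact two-sided permutation tests. The test of tiles, windows and CpGs was a quasi-binomial logistic regression with 1 coefficient for the group and a Pearson dispersion moderated across units by the method of limma 3.58.1 and not below 1, with a Benjamini-Hochberg adjusted F test. Units with fewer than 10 reads of either kind stayed out of the prior. Thinning drew 10 reads without replacement. The tests were also run on simulated data with 1 dispersion for all units of a size, and no outcome is given here. Changes were placed only around middle levels there, so recovery at very low or very high levels was not tried. Python 3.11.15, numpy 2.4.6, scipy 1.17.1, pandas 2.3.3 and R 4.3.3 were used.

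Named tiles were the 10 largest differences each way among tiles with an adjusted p below 0.05, at least 25 points and no overlap; named windows the 3 largest each way without the minimum; and, among tiles called for 5aCdR against vehicle, the 5 that came nearest to and the 5 that went furthest from the primary mean. Members, classes and tests were chosen with earlier results of these data known. The alternatives were other read minimums, coverage limits, CpG sets, tile sizes, dispersions, tests and distances, a replicate block, and fits without each library in turn.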

Additional observations from a re-analysis of the deposited data

Results flagged for a closer look

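In 12 of 60 groups of 4 libraries examined, 1 library stood apart from the other 3; chance alone gives about 1 in 20, and groups that sit at 0 or 100% have almost no spread to measure against. At CpGs with 1 to 4 CpGs nearby primary replicate 2, at 60.5%, lay below the others (60.9% each). Primary replicate 4 was the highest at the tiles at 3090001 of KB708226.1 (29%, others up to 8.10%), 1028001 of KB708202.1 (27.5%, others 0%), 11775001 of KB708183.1 (1.96%, others 0%) and 19093001 of KB708147.1 (0.177%, others 0%). Primary replicate 3 was the lowest at 2898001 of KB708174.1 (67.4%, others from 97.7%) and at 7024001 of KB708216.1 (76.1%, others from 98.6%), and the highest at 54534001 of KB708127.1 (9.09%, others 0%). Primary replicate 2 was the highest at 2177001 of KB708273.1 (14.6%, others up to 2.33%) and 901001 of KB708300.1 (0.673%, others 0%). Of the vehicle libraries, replicate 1 was the lowest at 11561001 of KB708169.1 (97.1%, others from 99.7%) and replicate 2 at 6232001 of KB708169.1 (90.3%, others from 99.5%).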

How the results depend on the processing

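No called group mean, named tile or named window changed direction under the alternatives run on it; for tiles, windows and CpGs at large only counts were compared. With at least 20 reads fewer units were tested: 1577 of 5888 tiles were called (1181 lower, 396 higher) and 347 of 1284 windows (289 lower, 58 higher). With at least 5 CpGs per tile 1164 of 8399 were called, 634 lower and 530 higher, and with dispersion from all 3 groups 2248 of 8928, 1730 lower and 518 higher. limma on mean logits called 547 higher tiles; the cause was not tested. Without the CpGs of highest coverage, 70 tiles were called for 5aCdR against vehicle, 22 nearer and 48 further.

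Replicate numbers do not pair the samples, since plates and fetuses share only a number and deviations of same-numbered libraries correlated at -0.0139 to 0.0115. The replicate block, which drops primary replicate 4, called 2282 tiles (1701 lower, 581 higher), 6199 CpGs and 1129 windows, and for 5aCdR against vehicle, without vehicle replicate 4, 73 tiles, 20 nearer and 53 further. Its prior came from the fit without the block.

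Shares of CpGs passed without thinning (2.59 points below 20%, -9.81 above 80%) and at 20 reads (4.56 and -11.0). The cross product gave a distance difference of 0.542.

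Leaving out 1 library, no permutation test of treated against primary cells could go below 0.0667. The mean difference stayed between -6.41 and -6.20, and those by density, from sparse to dense, between -14.4 and -14.1, -9.61 and -9.33, -3.50 and -3.25, 1.07 and 1.27, and 1.13 and 1.18. Counts ranged from 2476 to 2955 tiles (1840 to 2225 lower, 636 to 803 higher), 1139 to 1252 windows (1005 to 1121 lower, 116 to 136 higher) and 3332 to 6478 CpGs (2836 to 5515 lower, 496 to 963 higher). For 5aCdR against vehicle they ranged from 46 to 148 tiles, 10 to 47 nearer and 36 to 105 further.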

Other observations

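Of 174 scaffolds with at least 30 tested tiles, 169 had a mean tile difference between treated and primary cells below 0, and 100 had a median below 0. The mean difference ran from -15.4 points on KB708186.1, with 30 tiles of which 6 were called lower and 0 higher, to 1.99 points on KB708341.1, with 108 tiles of which 1 was called lower and 5 higher. KB708244.1, which holds 1 of the named windows, had 54 of 200 tiles called lower and 10 higher and a mean difference of -13.1 points. The 3 scaffolds were picked after their values were seen.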
